A study of Homo sapiens with 6 samples.

Results

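The genes described here encode the subunits of voltage-gated calcium and sodium channels. They were chosen by symbol: CACNA1 (calcium channel α1), CACNA2D (α2δ), CACNB (β), CACNG (γ and related proteins), SCN genes ending in A (sodium channel α) and SCN genes ending in B (sodium channel β). The rule found 40 of the 19923 genes in the count tables, 26 for calcium channels and 14 for sodium channels. Poly(A) RNA was sequenced in 6 libraries of Kelly cells, an established MYCN-amplified human neuroblastoma line whose genotype the labels give as WT. Cells were transfected for 72 hours with control siRNA (siControl, 3 libraries) or with siRNA against METTL3, the catalytic subunit of the enzyme that writes N6-methyladenosine into mRNA (siMETTL3, 3 libraries). The single comparison of the design is siMETTL3 against siControl. The labels do not say whether the libraries of a group came from separate cultures, so the p-values measure only the spread between these libraries, which may be technical.

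Voltage-gated calcium and sodium channels open when the membrane is depolarised. Sodium channels carry the upstroke of the action potential, and calcium channels turn depolarisation into calcium entry, which triggers transmitter release, secretion and calcium-dependent transcription. In each channel a large α (sodium) or α1 (calcium) protein forms the pore and the voltage sensor, and smaller subunits set how much of it reaches the membrane and how it gates. Sympathetic neurons and chromaffin cells, the lineage from which neuroblastoma arises, rely on these channels to fire and to secrete catecholamines.

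Total counts ranged from 15430000 to 21565013 per library, and the channel genes together took 0.196% to 0.210% of the counts in siControl and 0.221% to 0.230% in siMETTL3. METTL3 itself was at 53.5, 52.8 and 56.2 CPM in siControl and between 31.8 and 34.3 CPM in the 3 siMETTL3 libraries, 61.0% of its control level (edgeR: log2 fold change -0.71, FDR 4.68e-06). CPM, the normalised level used throughout, are counts scaled to library size, with that size adjusted by TMM, a trimmed mean of log ratios. The siControl libraries were more spread than the siMETTL3 libraries: on the first principal component, which held 60.8% of the variance, they lay at -18.0, -24.4 and -37.0, and the siMETTL3 libraries lay between 25.6 and 27.4. The outermost, siControl replicate 3, was also the shallowest. All 12 noradrenergic neuroblastoma markers were detected, with a summed level of 6541 to 7010 CPM in siControl and 9411 to 10024 CPM in siMETTL3. MYCN alone went from between 2880 and 3147 CPM in siControl to between 4443 and 4743 CPM, and of the 12 markers 7 were higher and 2 were lower by edgeR, ISL1 (log2 fold change -1.18) and CHGB (-0.56). The 10 muscle markers summed to at most 3.05 CPM in siControl and 7.84 to 8.84 CPM in siMETTL3, with MYOD1 at 0 in all siControl libraries. The 5 glial markers, with S100B at 0 in 5 libraries, summed to 9.23 to 9.78 CPM and 13.8 to 15.9 CPM, the 4 fibroblast markers to 1.90 to 4.51 CPM and 4.96 to 6.28 CPM, the 4 epithelial markers, with KRT5 at 0 throughout, to 5.44 to 6.54 CPM and 5.70 to 7.05 CPM, and the 4 haematopoietic markers to 0.398 to 0.603 CPM and 0.276 to 0.487 CPM. The noradrenergic, muscle, glial and fibroblast sums were higher in every siMETTL3 library than in any siControl library, and their part in the results below was not tested. The muscle sum was mostly TNNT2 and TNNT3 in siMETTL3, and the fibroblast sum was mostly COL1A1.

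Upstream sequences of 5 genes with changed levels are shown first, chosen after their values were seen, to let their content of G and C be compared. RefSeq promoters (GRCh38.p14) were at hand for 26 of the 40 genes, 40 promoters in all, and the 250 bases before each start site were searched on both strands for GGGCGG (the GC box), CACGTG (the E-box to which MYC proteins with MAX bind) and TGACGTCA (the cyclic AMP response element). Capitals mark the matches, with the GC box also read as CCGCCC. Shown are CACNA1B (chr9:137877532-137877781, plus strand), 1 of the 2 listed starts of CACNA2D2, the one richer in G and C (chr3:50503635-50503884, minus strand) and SCN8A (chr12:51590983-51591232, plus strand), which were higher in siMETTL3, and CACNA2D1 (chr7:82443957-82444206, minus strand) and the 2 listed starts of SCN1A (chr2:166149162-166149411 and chr2:166128021-166128270, minus strand), which were lower.
CACNA1B: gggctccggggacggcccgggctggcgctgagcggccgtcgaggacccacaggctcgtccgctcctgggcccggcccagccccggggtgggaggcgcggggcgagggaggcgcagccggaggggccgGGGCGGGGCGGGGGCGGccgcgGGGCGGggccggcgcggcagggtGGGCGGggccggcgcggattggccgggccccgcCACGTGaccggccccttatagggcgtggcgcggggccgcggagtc
CACNA2D2: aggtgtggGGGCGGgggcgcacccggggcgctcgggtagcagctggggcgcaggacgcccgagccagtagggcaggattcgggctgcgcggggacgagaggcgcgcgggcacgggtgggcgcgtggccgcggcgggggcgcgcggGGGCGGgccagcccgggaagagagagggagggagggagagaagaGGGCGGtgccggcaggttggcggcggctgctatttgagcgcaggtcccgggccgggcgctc
SCN8A: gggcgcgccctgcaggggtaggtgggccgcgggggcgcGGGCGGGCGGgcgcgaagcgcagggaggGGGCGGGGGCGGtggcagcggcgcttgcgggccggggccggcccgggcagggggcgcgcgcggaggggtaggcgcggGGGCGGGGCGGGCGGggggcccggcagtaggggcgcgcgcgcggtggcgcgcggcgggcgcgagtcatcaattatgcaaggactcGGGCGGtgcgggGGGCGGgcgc
CACNA2D1: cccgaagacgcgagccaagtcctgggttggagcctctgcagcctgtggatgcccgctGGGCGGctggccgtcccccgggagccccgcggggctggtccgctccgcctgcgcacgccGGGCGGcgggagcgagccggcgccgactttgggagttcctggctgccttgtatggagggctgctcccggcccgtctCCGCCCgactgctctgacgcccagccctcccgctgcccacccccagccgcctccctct
SCN1A, upstream start: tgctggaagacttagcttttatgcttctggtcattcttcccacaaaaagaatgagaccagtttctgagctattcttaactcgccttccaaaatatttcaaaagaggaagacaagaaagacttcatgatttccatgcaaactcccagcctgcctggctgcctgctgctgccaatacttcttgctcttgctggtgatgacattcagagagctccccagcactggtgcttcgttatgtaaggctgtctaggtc
SCN1A, downstream start: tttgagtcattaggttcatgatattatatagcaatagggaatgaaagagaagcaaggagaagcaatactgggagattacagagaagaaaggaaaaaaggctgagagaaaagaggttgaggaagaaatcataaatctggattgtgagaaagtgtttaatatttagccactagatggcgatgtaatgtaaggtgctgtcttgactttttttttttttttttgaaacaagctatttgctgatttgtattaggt

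The CACNA1B window was 85.2% G and C, with 5 GC boxes and 1 CACGTG. The SCN8A window was 85.6% G and C with 9 GC boxes, and those of CACNA2D2 and CACNA2D1 held 3 each at 78.8% and 75.6%. The other listed start of CACNA2D2 (chr3:50504245-50504494, minus strand, not printed) was 58.0% G and C and held none of the motifs. The SCN1A windows were 45.6% and 33.6% G and C and held none of the motifs. Windows of genes not past the threshold given below spanned a similar range. Those of SCN2A were 29.2% and 32.0% G and C with none of the motifs, and that of CACNA2D3 was 80.8% with 6 GC boxes. Whether G and C content goes with the direction of change was not tested. Over all 35116 promoters the median was 58.0%. As poor in G and C as the downstream SCN1A window, or poorer, were 4.36% of promoters, and 24.0% were so for the upstream window. A GC box stood in 42.6% of all promoters and in 52.5% of the 40 promoters of these genes. CACGTG stood in 6.34% of all promoters and in those of 2 of the 26 genes, CACNA1B and CACNA1I, and TGACGTCA in 1.65% of all promoters and in 0 of the 40. Counted by gene, 19 of the 26 genes had a GC box in at least 1 listed promoter, among them 7 of the 8 whose level changed, the exception being SCN1A. These are matches of letters in a window and not measured binding.

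Of the 40 genes, 31 passed the filter on low counts and were tested, and 15 of these were past the threshold, set at a false discovery rate (FDR) of 0.05 over all 15311 tested genes (edgeR quasi-likelihood test, Benjamini-Hochberg adjustment). Over all tested genes, 37.8% were past it. Among the channel genes 12 were higher and 3 were lower in siMETTL3, where 18.6% of all tested genes were higher and 19.2% were lower. The calcium channel genes gave 9 of 21 tested as higher and 1 as lower, and the sodium channel genes gave 3 of 10 as higher and 2 as lower. The median log2 fold change of the 31 genes was 0.15, against -0.0021 over all tested genes. In 18 of the 31 the values of the groups did not overlap, 14 with siMETTL3 above and 4 with siMETTL3 below, where 49.9% of all tested genes did not overlap, 24.8% above and 25.1% below. Without siControl replicate 3, 11 were higher and 3 were lower, where 40.5% of all tested genes were past the threshold. Of the 31, 27 were over the filter's level of about 0.490 CPM in all 6 libraries. The other 4, CACNG2, CACNA1E, CACNA1H and SCN7A, were not past the threshold. Since these are bulk samples, fewer cells that express a gene and less RNA per cell cannot be told apart.

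**Figure D1:**
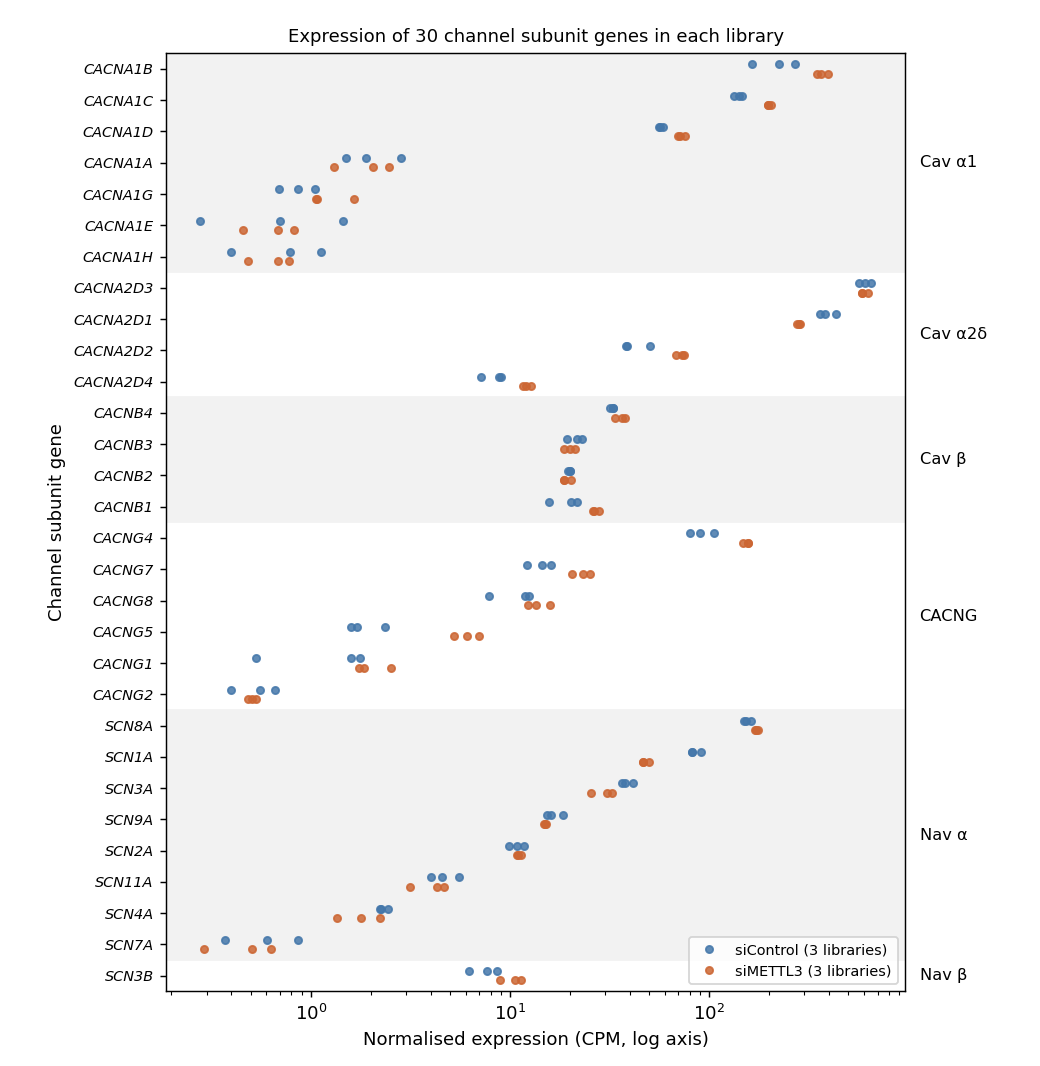
Normalised expression (CPM, log axis) of 30 of the 31 tested channel genes, by class, with 1 point for each of the 3 siControl (blue) and 3 siMETTL3 (orange) libraries. CACNA2D3 has the highest CPM, the SCN1A and CACNA2D1 points of siMETTL3 lie to the left of those of siControl, and those of CACNA1B, CACNG4 and CACNG5 lie to the right.

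The pore-forming α1 genes that were well expressed in Kelly cells all rose. CACNA1B encodes the N-type channel, the main calcium source for transmitter release from sympathetic neurons (chromosome 9, 137877782 to 138124624, plus strand). It was measured at 269, 223 and 165 CPM in the siControl libraries and at 396, 365 and 348 CPM in the siMETTL3 libraries. The groups did not overlap, although the siControl values were widely spread, with siControl replicate 3 lowest. The log2 fold change was 0.75 with a standard error (SE) of 0.17 (edgeR FDR 0.0163). Without siControl replicate 3 it was 0.59 (edgeR FDR 5.95e-06), and with an offset for the length of the gene span CACNA1B was no longer past the threshold (0.69, edgeR FDR 0.0610).

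CACNA1C and CACNA1D encode the L-type channels of neurons and endocrine cells, which couple depolarisation to gene expression and pacemaking. CACNA1C (chromosome 12, 1970786 to 2697950, plus strand) was at 147, 133 and 141 CPM in siControl and at 203, 197 and 197 CPM in siMETTL3. These values were tight within each group and well apart between them, with a log2 fold change of 0.50 (SE 0.057, edgeR FDR 1.66e-05). CACNA1D (chromosome 3, 53328963 to 53813733, plus strand) went from 58.9, 55.9 and 56.9 CPM to 75.4, 69.8 and 71.4 CPM, a log2 fold change of 0.34 (SE 0.062, edgeR FDR 0.000842). Counts cover the whole gene span, introns included, on either strand, and reads in an overlap went to both genes, so the genes that overlap these spans bear on both values. DCP1B, which overlaps 33750 bases of CACNA1C, had between 15.8% and 32.1% as many counts as CACNA1C and went the other way (edgeR: log2 fold change -0.32, FDR 0.00743). DCP1A, which overlaps CACNA1D, had between 73.1% and 94.2% as many counts as CACNA1D and was not past the threshold (edgeR: log2 fold change 0.06, FDR 0.497). CHDH, the other gene that overlaps CACNA1D, was not past it either (0.09, edgeR FDR 0.561). How many reads were shared was not measured.

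The remaining α1 genes were near the limit of detection. CACNA1A, for the P/Q-type channel of central synapses, had raw counts of 41, 30 and 43 in siControl and 27, 54 and 42 in siMETTL3. This is a small fraction of the counts of CACNA1B, and its log2 fold change of -0.07 had a 95% interval from -0.74 to 0.60. The T-type genes CACNA1G and CACNA1H and the R-type gene CACNA1E had between 6 and 36 counts per library. None of the 3 was past the threshold, with edgeR FDR values of 0.244 for CACNA1G, 0.760 for CACNA1H and 0.775 for CACNA1E. On the log2 scale their 95% intervals ran from -0.21 to 1.30 for CACNA1G, from -1.16 to 0.76 for CACNA1H and from -1.36 to 0.91 for CACNA1E. Sizeable changes within these intervals were therefore not excluded at this depth. The T-type gene CACNA1I, the retinal L-type gene CACNA1F and the skeletal muscle gene CACNA1S did not pass the filter, with 2 to 14 counts per library.

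The α2δ genes encode extracellular subunits that bring calcium channels to the surface and to the release site, and the proteins from CACNA2D1 and CACNA2D2 are the binding sites of gabapentin. They moved in opposite directions. CACNA2D1 (chromosome 7, 81946444 to 82443777, minus strand) fell from 358, 381 and 434 CPM to 281, 284 and 274 CPM. Every siMETTL3 library lay below every siControl library, and the log2 fold change was -0.48 (SE 0.068, edgeR FDR 0.000105). CACNA2D2 (chromosome 3, 50362799 to 50504244, minus strand) rose from 50.4, 38.8 and 38.2 CPM to 68.4, 74.9 and 73.2 CPM. Its groups were also apart, with a log2 fold change of 0.76 (SE 0.096, edgeR FDR 6.94e-05). Z84492.2, which overlaps 5125 bases of CACNA2D2, had between 69.2% and 106% as many counts as CACNA2D2 and rose less (edgeR: log2 fold change 0.38, FDR 0.000705).

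CACNA2D3 (chromosome 3, 54122547 to 55074557, plus strand) had the highest CPM of all channel genes and the longest span, 952 kb. It was measured at 609, 566 and 651 CPM in siControl and at 624, 583 and 584 CPM in siMETTL3. The groups overlapped, and the 95% interval of the log2 fold change ran from -0.16 to 0.11 (edgeR FDR 0.770). CACNA2D4 (chromosome 12, 1791963 to 1918666, minus strand), the least abundant of the α2δ genes, rose from 8.99, 8.81 and 7.17 CPM to 12.1, 12.8 and 11.6 CPM (edgeR: log2 fold change 0.54, SE 0.13, FDR 0.00434). LRTM2, which overlaps its span, had between 14.8% and 31.9% as many counts and was also higher (0.84, edgeR FDR 0.0266).

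Because CACNA2D1 fell and CACNA2D2 rose, their ratio changed more than either gene. Per kb of the canonical transcript, CACNA2D1 was 5.37, 7.42 and 8.57 times as high as CACNA2D2 in the siControl libraries and 3.10, 2.86 and 2.83 times as high in the siMETTL3 libraries. Per kb of gene span the ratios were smaller, 2.02, 2.79 and 3.23 in siControl and 1.17, 1.08 and 1.07 in siMETTL3. The groups did not overlap, which follows from CACNA2D1 being lower and CACNA2D2 higher in every siMETTL3 library. The scales differ only by a fixed factor. With 3 libraries against 3 the smallest two-sided p of an exact permutation test is 0.10, so no test of a ratio is given. The transcripts of this pair also differ in GGACT, the most frequent form of the sequence that METTL3 methylates, written here as DNA. The pair was chosen after its values were seen, and the densities of the other channel genes are summarised below. The canonical CACNA2D1 transcript of GENCODE release 44 holds 2 matches in 7542 bases, and that of CACNA2D2 holds 12 in 5696 bases, 7 in the coding part and 5 in the 3′ UTR. Both matches of CACNA2D1 and the 3 matches of CACNA2D2 closest to the end of its coding sequence are shown with 8 bases on each side, GGACT in capitals.
CACNA2D1, coding: tggaactgGGACTtgtcatta
CACNA2D1, 3′ UTR: ttaaaactGGACTtatcgggt
CACNA2D2, coding: tgtgagatGGACTgcgaggtt
CACNA2D2, coding: aacaatgaGGACTtactctgt
CACNA2D2, 3′ UTR: tggaaactGGACTcacattcg

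Across the channel genes the density of GGACT ranged from 0.265 per kb in CACNA2D1 to 2.73 per kb in CACNB3. Its median was 1.09 per kb over the 12 genes that rose, 0.440 per kb over the 3 that fell and 0.780 per kb over the 16 tested genes that were not past the threshold. Over all tested genes with a transcript, 91.3% held at least 1 match, and the medians were 0.992 per kb among genes that rose, 0.861 per kb among genes that fell and 0.928 per kb among the rest. The 3 that fell ranged from 0.265 per kb in CACNA2D1 to 1.005 per kb in SCN1A. CACNB1 rose with a density of 0.269 per kb, and CACNB3, the densest, was not past the threshold. Methylation was not measured in these libraries, and a match is not a methylated site.

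**Figure D2:**
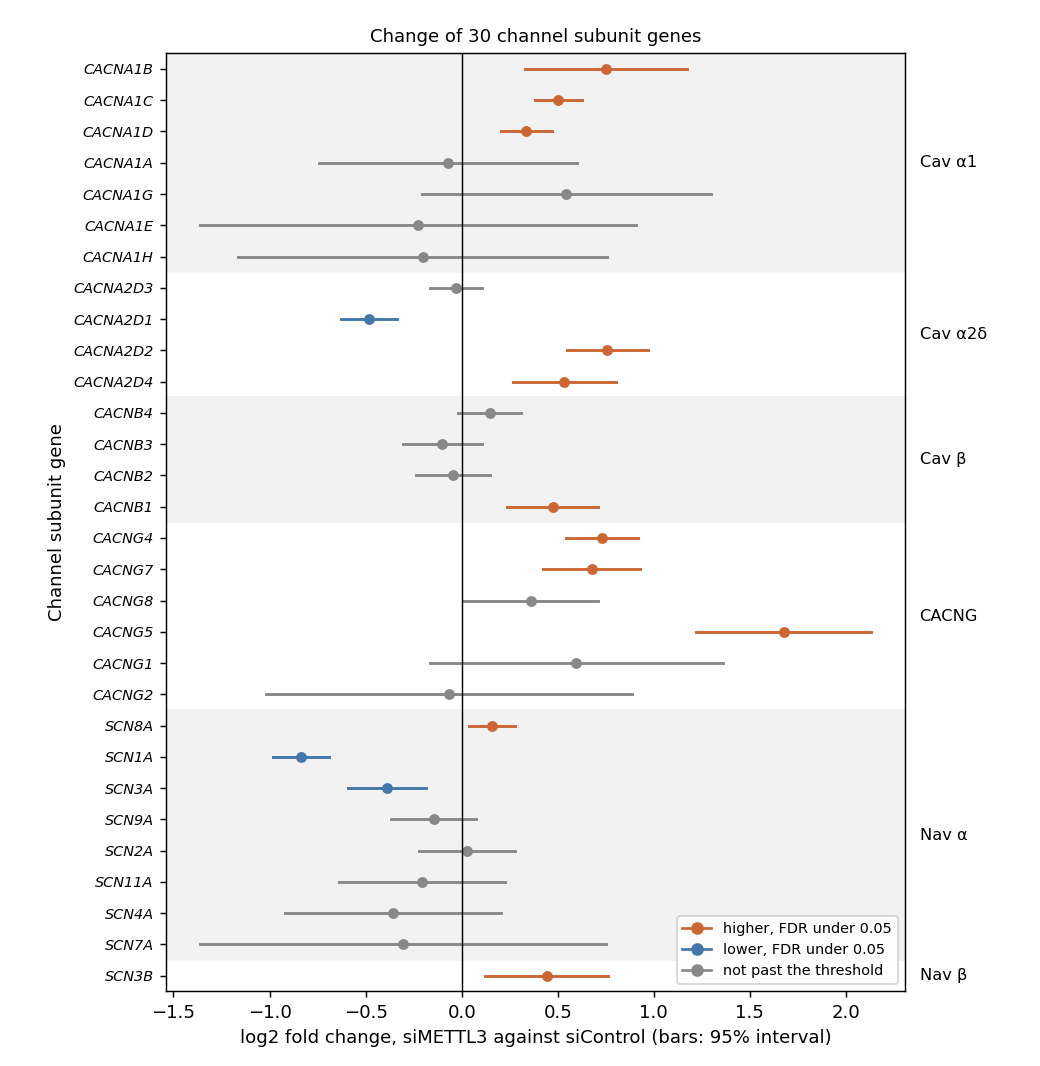
Log2 fold change of siMETTL3 against siControl for 30 of the 31 tested channel genes, by class, with 95% intervals from edgeR. The 11 genes shown that were higher are orange and the 3 that were lower (CACNA2D1, SCN1A and SCN3A) are blue. The 16 that were not past the threshold are grey. Intervals are widest for the α1, CACNG and sodium channel genes with few counts.

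The β genes encode the cytoplasmic subunits that bind the α1 protein and carry it to the membrane. Only CACNB1 passed the threshold among these 4. CACNB1 (chromosome 17, 39173453 to 39197703, minus strand), whose product is best known from skeletal muscle, rose from 21.7, 20.3 and 15.7 CPM to 28.0, 26.4 and 26.2 CPM (edgeR: log2 fold change 0.47, SE 0.11, FDR 0.00394). CACNB3, the main partner of N-type channels in many neurons, was at 23.0, 21.7 and 19.4 CPM in siControl and at 18.8, 21.2 and 20.1 CPM in siMETTL3. These groups overlapped, with a 95% interval of the log2 fold change from -0.31 to 0.11. CACNB2 lay between 18.6 and 20.4 CPM in all 6 libraries (interval -0.24 to 0.15). CACNB4 was at 31.9, 32.9 and 32.9 CPM in siControl and at 33.7, 37.6 and 36.7 CPM in siMETTL3. Its groups did not overlap but it was not past the threshold (edgeR: log2 fold change 0.15, FDR 0.149). AC068547.1, which overlaps 141182 bases of CACNB4, had between 99.6% and 150% as many counts as CACNB4 and was lower (edgeR: log2 fold change -0.28, FDR 0.0113).

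The CACNG genes encode small proteins that span the membrane. CACNG1 and CACNG6 belong to the muscle-type γ subunits, while the other 6 are best known as regulators of AMPA-type glutamate receptors. Of the 6 tested, 3 rose and none fell. CACNG4 (chromosome 17, 66964707 to 67033398, plus strand), the most abundant, rose from 106, 89.6 and 80.0 CPM to 156, 156 and 147 CPM (edgeR: log2 fold change 0.73, SE 0.086, FDR 3.74e-05). CACNG5 (chromosome 17, 66835117 to 66894751, plus strand) rose from 2.36, 1.70 and 1.59 CPM to 5.25, 6.11 and 7.01 CPM. This was the only change of at least 2-fold among the channel genes, with a log2 fold change of 1.68 (SE 0.21, edgeR FDR 4.18e-05), and it started from a low level of 51, 34 and 24 raw counts. CACNG7 (chromosome 19, 53909335 to 53943941, plus strand) rose from 16.1, 14.5 and 12.2 CPM to 25.3, 23.1 and 20.5 CPM (edgeR: log2 fold change 0.68, SE 0.12, FDR 0.000531). CACNG8 was at 12.5, 11.9 and 7.83 CPM in siControl and at 13.5, 15.9 and 12.3 CPM in siMETTL3. The groups overlapped slightly, and it was not past the threshold (edgeR: log2 fold change 0.36, FDR 0.0979), but it was without siControl replicate 1 (0.48, edgeR FDR 0.0279). Without siControl replicate 3 its log2 fold change was 0.19 (edgeR FDR 0.245), and without siMETTL3 replicate 2 it was 0.25 (edgeR FDR 0.340). CACNG1 and CACNG2, with 8 to 52 counts per library, were not past it either (log2 fold changes 0.60 and -0.06). CACNG3 and CACNG6 did not pass the filter, with at most 12 counts in a library.

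Among the sodium channel α genes, which encode the pore of the channel, the largest change was a fall. SCN1A (chromosome 2, 165984641 to 166149214, minus strand), the gene for a sodium channel of central and peripheral neurons best known from Dravet syndrome, was at 82.2, 82.0 and 91.3 CPM in siControl. In siMETTL3 it was at 46.5, 46.5 and 49.9 CPM. The groups were far apart and the log2 fold change was -0.84 (SE 0.067, edgeR FDR 8.27e-07), the smallest FDR among the channel genes. SCN3A (chromosome 2, 165087522 to 165204067, minus strand), prominent in the fetal brain, fell from 36.7, 41.2 and 38.0 CPM to 30.6, 25.5 and 32.5 CPM (edgeR: log2 fold change -0.39, SE 0.094, FDR 0.00542). SCN3A and SCN2A overlap by 9075 bases on opposite strands, and SCN2A had between 26.9% and 43.0% as many counts as SCN3A.

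SCN8A went the other way. SCN8A (chromosome 12, 51590266 to 51812864, plus strand), for the channel of the axon initial segment and the nodes of Ranvier, was the most abundant sodium channel gene. It was at 162, 149 and 153 CPM in siControl and at 169.5, 173 and 176 CPM in siMETTL3, a log2 fold change of only 0.16 (SE 0.055, edgeR FDR 0.0380). The groups did not overlap, but this call was lost when any of 4 libraries was left out: siControl replicate 2 (edgeR FDR 0.161) or siMETTL3 replicate 1, 2 or 3 (edgeR FDR between 0.0895 and 0.128). It was also lost with the offset for gene span length (0.09, edgeR FDR 0.197), without a filter (0.15, edgeR FDR 0.0567) and among genes without overlaps (0.14, edgeR FDR 0.0642).

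The remaining sodium channel α genes described here did not pass the threshold. SCN2A was at 9.88, 11.8 and 10.9 CPM in siControl and at 11.4, 11.0 and 10.8 CPM in siMETTL3, with a 95% interval of the log2 fold change from -0.22 to 0.28. SCN9A, for a channel of sensory and sympathetic neurons, was at 15.4, 16.0 and 18.5 CPM and at 15.2, 14.8 and 14.9 CPM. Its siMETTL3 values lay just below its siControl values (edgeR: log2 fold change -0.15, FDR 0.295). SCN11A, for a channel of pain-sensing neurons, the skeletal muscle gene SCN4A and SCN7A, which encodes a sodium-sensing relative, were at 4.71, 2.31 and 0.611 CPM in siControl on average, with intervals that all included 0. SCN10A did not pass the filter, with 0 to 6 counts per library.

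Of the 4 β genes of sodium channels, whose products are single-pass adhesion proteins of the immunoglobulin type, SCN3B was the only one that passed the filter. SCN3B (chromosome 11, 123629187 to 123655244, minus strand) rose from 8.62, 7.71 and 6.24 CPM to 10.5, 11.4 and 8.96 CPM (edgeR: log2 fold change 0.44, SE 0.15, FDR 0.0303). The lowest siMETTL3 value was only slightly above the highest siControl value. The call was lost without siControl replicate 2 or 3 (edgeR FDR 0.0766 and 0.0670) and without siMETTL3 replicate 1 or 2 (edgeR FDR 0.0944 and 0.138). SCN4B had 0 in siControl and 0, 1 and 4 in siMETTL3, and SCN2B had 0 in all 6 libraries.

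Levels of different genes were compared per kb of the canonical transcript, and also per kb of the gene span, since intronic reads were counted and their share is not known. Within the α1 class, CACNA1B made up 49.5% to 61.0% of the summed level per transcript kb in siControl and 61.2% to 63.4% in siMETTL3, followed by CACNA1C and CACNA1D. The order of these 3 was the same per kb of span, with CACNA1B at 70.5% on average in siControl and 76.0% in siMETTL3. CACNA1C stood at 1.70, 1.62 and 1.69 times CACNA1D in siControl and at 1.84, 1.92 and 1.88 times in siMETTL3. Within the α2δ class the order depended on the length used. CACNA2D3 led with 72.5% per transcript kb in siControl, while CACNA2D1 led per span kb with 43.9% against 35.6% for CACNA2D3. In siMETTL3 CACNA2D3 led on both scales, with 75.1% and 34.9%. The CACNA2D2 share was higher in siMETTL3 on both, at 6.05% against 3.38% per transcript kb and at 28.4% against 16.8% per span kb.

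In the β class CACNB3 led, with 36.3% to 37.4% per transcript kb in siControl, whereas in siMETTL3 CACNB1 (32.2% to 35.6%) was above CACNB3 (30.1% to 32.7%) in replicates 1 and 3 and just below it in replicate 2. Per kb of span CACNB3 led in both groups, at 59.5% and 50.5%. Among the sodium channel α genes SCN8A came first on both scales, at 41.3% to 44.1% per transcript kb in siControl and 48.7% to 50.2% in siMETTL3. SCN1A was second in siControl, with 21.7% to 23.8%. In siMETTL3 it made up 13.1% to 13.4%. Per transcript kb SCN8A was 2.04, 1.88 and 1.73 times as high as SCN1A in siControl and 3.77, 3.84 and 3.64 times as high in siMETTL3. Per span kb it was 1.46, 1.35 and 1.24 times and 2.70, 2.74 and 2.60 times as high. The groups did not overlap, which follows from SCN8A being higher and SCN1A lower in every siMETTL3 library. Summed over its genes, the α1 class went from 422 ± 54.8 CPM (SD, n = 3) to 646 ± 30.3 CPM, the CACNG class from 121 ± 18.3 to 199 ± 7.86 CPM, the α2δ class from 1050.3 ± 70.5 to 961 ± 21.8 CPM and the sodium channel α class from 338 ± 6.28 to 319 ± 8.72 CPM.

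**Figure D3:**
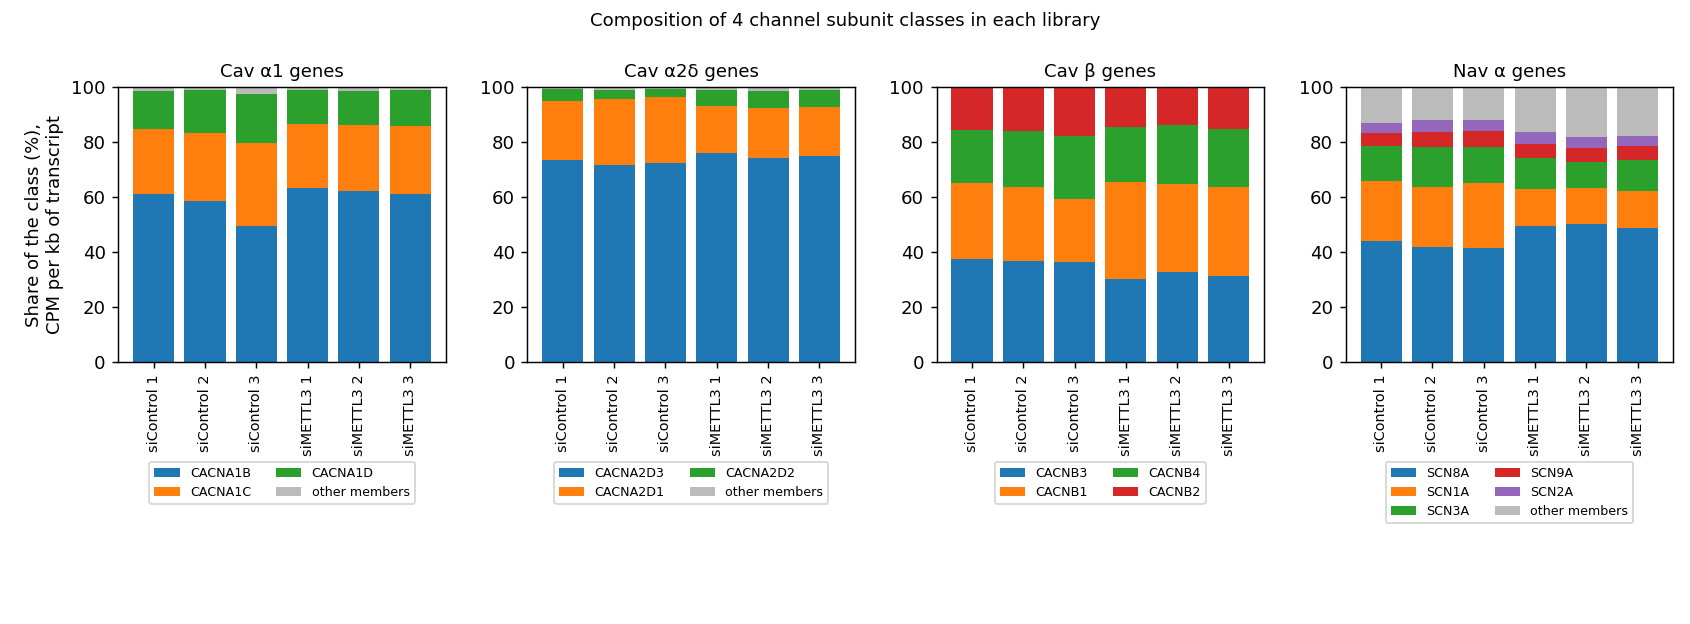
Share of each gene in the summed level of its class (%, CPM per kb of canonical transcript) in each of the 6 libraries, for the α1, α2δ, β and sodium channel α genes. CACNA1B, CACNA2D3, CACNB3 (in siControl) and SCN8A lead, and the CACNB1 band is wider in siMETTL3; the SCN1A band is narrower in all 3 siMETTL3 libraries. Grey holds the other genes of a class.

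Several of these genes lie in clusters of paralogs in the genome, and neighbours in a cluster did not all change alike. On chromosome 2 the order is SCN3A, SCN2A, SCN1A, SCN9A and SCN7A. SCN3A and SCN1A fell, and SCN2A between them had a log2 fold change of 0.03 (SE 0.12). On chromosome 17, CACNG5 and CACNG4 rose, and the third gene of that row, CACNG1, had a log2 fold change of 0.60 with an interval from -0.17 to 1.36. On chromosome 19, CACNG7 rose, CACNG8 had the value of 0.36 given above, and CACNG6 was not tested. The differences between neighbours were not tested.

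**Figure D4:**
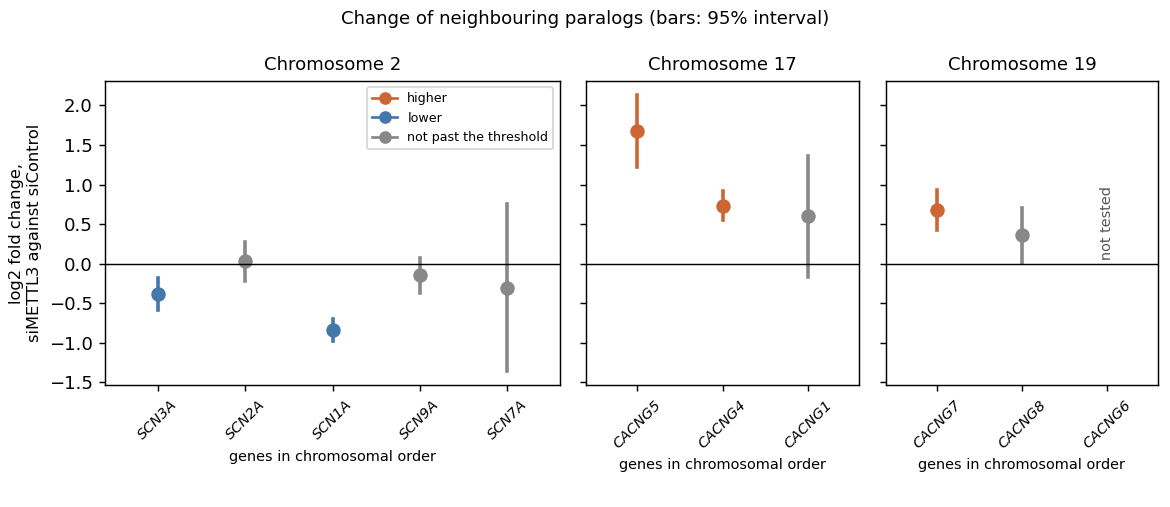
Log2 fold change of siMETTL3 against siControl, with 95% intervals, for channel genes that lie in the same cluster, in chromosomal order. On chromosome 2 the blue points of SCN3A and SCN1A are below 0 with SCN2A near 0 between them, and on chromosomes 17 and 19 the points of the tested CACNG genes are all above 0, with the interval of CACNG1 crossing it.

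The surroundings of these channels were described by a list of 60 genes for channel regulators, the NALCN leak channel, calcium release and store-operated entry, and calcium and sodium pumps and exchangers. Of these, 59 were in the tables and 55 were tested; 19 were higher and 8 were lower, 49.1% in all against 37.8% of all tested genes, and the median over the 55 was 0.14 on the log2 scale. KCNMA1, for the calcium-activated BK potassium channel, rose from 23.0, 20.4 and 21.2 CPM to 45.7, 45.8 and 47.7 CPM (edgeR: log2 fold change 1.11, FDR 2.64e-07). ATP2A3, a calcium pump of the endoplasmic reticulum, rose from 2.52 ± 0.555 CPM (SD, n = 3) to 10.1 ± 0.945 CPM (edgeR: log2 fold change 1.99, FDR 2.46e-06). ATP2B2, a calcium pump of the plasma membrane, rose from 8.91 ± 0.156 to 19.0 ± 0.490 CPM (edgeR: log2 fold change 1.09, FDR 3.20e-06). In all 3 the groups were far apart.

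Among the 8 lower genes, the 3 with the smallest FDR were PRRT2, FGF13 and REST. PRRT2, a presynaptic protein that also binds sodium channels, fell from 53.7 ± 5.53 to 34.7 ± 1.32 CPM (edgeR: log2 fold change -0.63, FDR 5.13e-05). FGF13, an intracellular factor that binds the tail of sodium channels, fell from 85.6 ± 17.0 to 46.9 ± 2.38 CPM (edgeR: log2 fold change -0.86, FDR 0.000339). REST, the repressor that keeps many neuronal genes, sodium channel genes among them, silent outside neurons, was at 23.6, 24.4 and 23.8 CPM in siControl and at 17.9, 17.7 and 17.0 CPM in siMETTL3. This was a narrow and separate pair of ranges, with a log2 fold change of -0.45 (SE 0.086, edgeR FDR 0.00113). The number of lower genes in the list was 5 without siMETTL3 replicate 1 and 5 without siMETTL3 replicate 2. In these fits the share of all tested genes past the threshold was 27.2% and 28.1%.

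**Figure D5:**
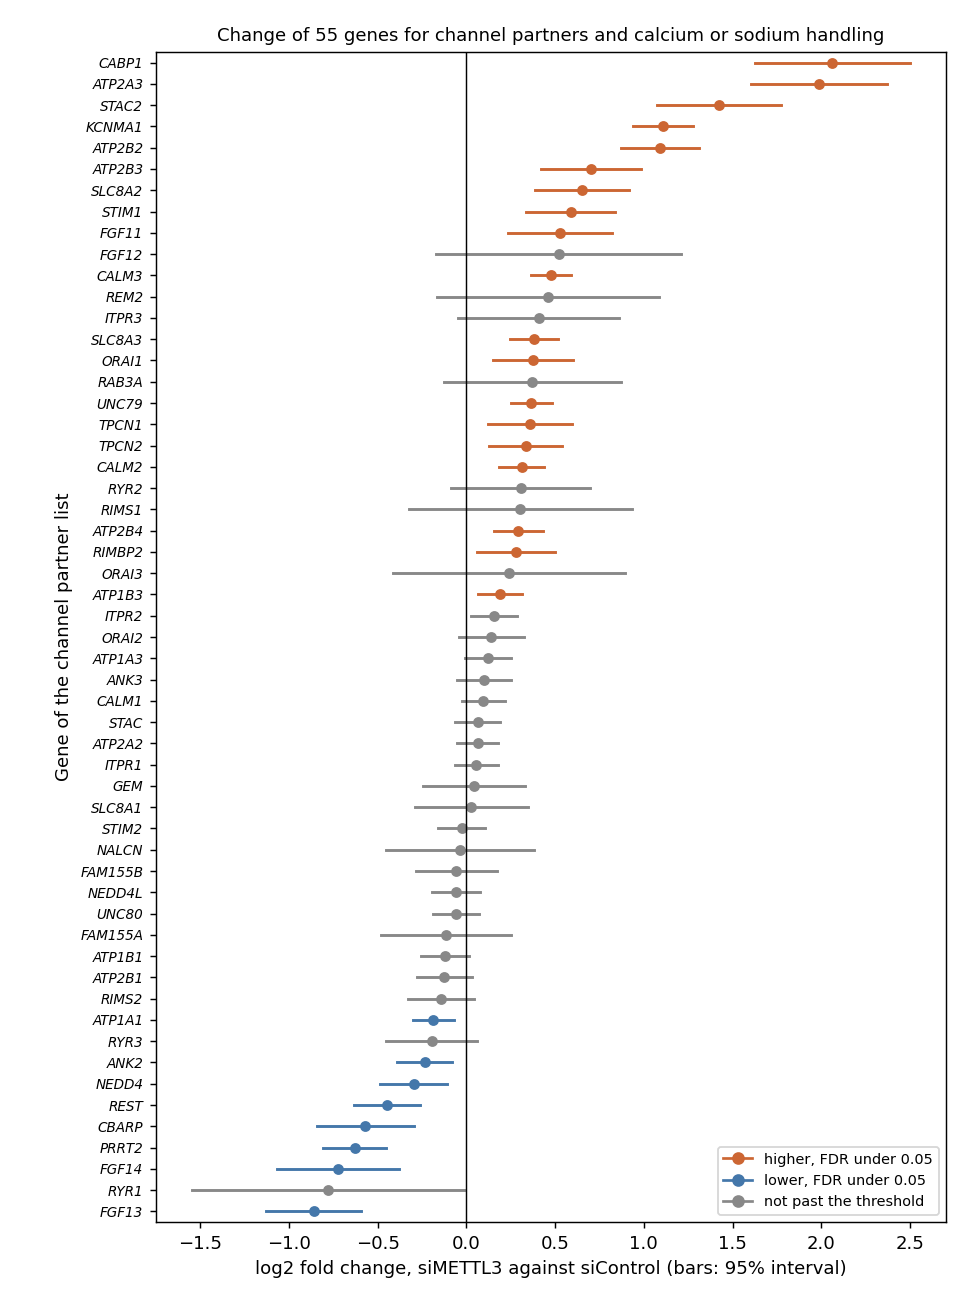
Log2 fold change of siMETTL3 against siControl, with 95% intervals, for the 55 tested genes of the list of channel partners, pumps and exchangers, ordered by value. The 19 genes that were higher are orange, 5 of them above 1 on the log2 scale, and the 8 that were lower are blue, with FGF13, PRRT2 and REST among them.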

How the data were processed

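Per the file headers, the authors counted reads per gene with featureCounts 1.5.3 and a protein-only GENCODE release 33 annotation, over whole gene spans with introns, crediting a read to every gene it overlapped, with no strand option and without counting read pairs; the read file names there carry the words input and picard, with no description of either. The submitters' processing notes also list FastQC 0.11.5, Trimmomatic 0.36, HISAT2 2.1.0 and GRCh38. The deposited values are raw counts. Groups and replicate numbers came from the sample titles. Genes were filtered with edgeR's filterByExpr, scaled by TMM and compared with edgeR 4.0.16 (R 4.3.3; quasi-likelihood F-test, robust, all 6 libraries, no covariate), and the fit was tested on simulated data. FDR values are Benjamini-Hochberg values over 15311 genes, with a threshold of 0.05. SE values were derived from each log2 estimate and its F statistic, and 95% intervals use the t quantile of the fit. No libraries of a group agreed within the sampling noise of independent reads (chi-square per degree of freedom 3.11 to 16.9). Where both reads of a pair were counted, the counts were not independent, which also raises this value. Transcript lengths are those of GENCODE release 44, on the same GRCh38 build. For 39 of the 40 RefSeq promoters the first bases after the start were found in a transcript of that gene. Alternatives were RLE, upper quartile and total count scaling, no filter or a minimum of 10 counts throughout, limma-voom (limma 3.58.1), DESeq2 1.42.0, non-robust dispersion, a replicate block, each library left out, genes without overlaps, and a gene span length offset without and with the block. The members, the partner list and the marker lists were chosen with earlier results of these data known. Every member could be named, although 2 of them are counted in the totals but not reported here by name, and of the partner list the 3 genes per direction with the smallest FDR, plus REST.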

Additional observations from a re-analysis of the deposited data

How the results depend on the processing

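The 12 higher and 3 lower channel genes became 7 and 2 among genes without overlaps, where 22 of the 31 genes were tested, and the lower genes of the partner list became 4. In that setting 9 of the 22 were past the threshold, where 39.4% of all 9518 tested genes were. The median log2 fold change of the 22 was 0.038. Leaving out each library gave 10 to 13 higher and 3 lower channel genes, and 14 to 23 higher and 5 to 8 lower partner genes. METTL3 stayed between -0.74 and -0.65 on the log2 scale under every alternative, past the threshold. Among genes without overlaps, METTL3 was kept regardless of its own overlaps. That setting therefore does not bear on reads shared with METTL3. Beside METTL3, the 31 genes gave 358 values under alternatives with all libraries, of which 5 became weaker, 2 stronger and 3 changed sign. They gave 186 values with a library left out, of which 8 became weaker, 1 stronger and 7 changed sign. All sign changes were in genes that were not past the threshold, and the cause was not tested: CACNA1E with limma-voom (0.029), SCN2A with the gene span length offset without and with the replicate block (-0.039 and -0.036), and, leaving out each library, SCN2A (-0.040 to 0.10), CACNA1A (-0.29 to 0.19), CACNA1E (-0.68 to 0.43), CACNA1H (-0.53 to 0.12), CACNG2 (-0.24 to 0.080) and CACNA2D3 (-0.077 to 0.022). Deviations of same-numbered libraries correlated at 0.040, 0.049 and 0.067, and those of differently numbered libraries at -0.064 to 0.026. All these correlations were weak, and whether replicate numbers mark pairs was not tested. With the replicate block 13 channel genes were higher and 3 lower, with CACNG8 past the threshold (0.38, edgeR FDR 0.0254). In that fit 40.3% of all tested genes were past it. Depth limits the genes under about 1 CPM.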
